A study of Mus musculus with 9 samples.

Results

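A set of 10 genes at the output end of the Hippo pathway were followed in mouse embryonic fibroblasts (MEFs) that ectopically expressed a mammalian *CRX* gene. They comprised the 4 TEAD transcription factor genes (*Tead1*, *Tead2*, *Tead3* and *Tead4*), the coactivator genes *Yap1* and *Wwtr1*, the cofactor genes *Vgll3* and *Vgll4*, and the target genes *Ctgf* and *Cyr61*. They were chosen by name, for their role in the pathway, from the 22068 genes of the count table. Earlier results of these data were known when they were chosen. All 10 were among the 10100 genes that passed the filters on low values. RNA-seq had been carried out on 9 libraries of primary C57Bl/6 MEFs at passage 2, with 3 libraries for each of 3 conditions. The control cells received a plasmid with a puromycin resistance gene and no homeobox gene. The eutherian *CRX* cells received the same kind of plasmid with V5-tagged human *CRX*, and the metatherian *CRX* cells one with V5-tagged opossum *CRX*. All cells, controls included, were electroporated and kept in puromycin for 5 days. The promoter driving *CRX* is not given in the sources used here, and nothing in the labels says that the 3 libraries of a condition came from separate cultures, so the p-values measure only the spread between these libraries, which may be technical.

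Hippo is a kinase cascade. When it is active, the kinases LATS1 and LATS2 phosphorylate YAP (encoded by *Yap1*) and TAZ (encoded by *Wwtr1*), which then stay in the cytoplasm or are degraded. When it is inactive, YAP and TAZ enter the nucleus, bind the TEAD factors and switch on genes such as *Ctgf* and *Cyr61*, which encode secreted matrix proteins of the CCN family. VGLL proteins bind TEAD at a site that overlaps the one used by YAP, and VGLL4 acts as a competitor of YAP. Fibroblasts spread on stiff plastic are known for nuclear YAP and for high transcript levels of these targets. Much of the control of YAP and TAZ is by phosphorylation and location in the cell, which RNA-seq does not measure.

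TEAD factors recognise the letters GGAATG, and CRX recognises TAATCC. The 250 bases upstream of RefSeq transcription starts (GRCm38.p6) were searched on both strands for each of these words, which do not overlap each other in any window of these genes. Promoters were at hand for 7 of the 10 genes, and not for *Tead1*, *Tead4* and *Ctgf*. The TEAD word, or its complement CATTCC, stood in 6 of the 7 genes, all but *Tead2*, against 14.4% of all 27025 genes with a promoter. The CRX word or its complement GGATTA stood in 0 of the 7, against 7.21% of all genes. By start rather than by gene, 8 of the 10 listed starts of the 7 genes held the TEAD word, against 12.6% of 32851 starts, and both starts of *Wwtr1* shared the same copy. A match in a window is a description of its letters and not a bound site. The matches are shown for the genes the results turn on, each with 10 bases on either side, 5′ to 3′ on the gene's own strand, with the word in capitals:
*Cyr61*, chr3:145650073-145650098, minus strand: cgccaaccaaCATTCCtgagatgttt
*Vgll4*, chr6:114969270-114969295, minus strand: agtggggtggGGAATGctgagaaatg
*Vgll3*, chr16:65815116-65815141, plus strand: cgcctccccaCATTCCggctaccctg
*Tead3*, chr17:28350972-28350997, minus strand: cgacgagcgaGGAATGgggtgcgcgg
*Yap1*, chr9:8004722-8004747, minus strand: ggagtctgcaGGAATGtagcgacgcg
*Wwtr1*, chr3:57576031-57576056, minus strand: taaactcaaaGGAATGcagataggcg
The *Cyr61* copy began 103 bases before the start and the *Vgll3* copy 63 bases before it. The windows of *Vgll3* and *Vgll4* lay inside the limits that the deposited count table gives to these genes, and the other 4 windows shown lay outside the limits of their gene. *Tead3* has a further listed start with 2 copies of CATTCC, at chr17:28350708-28350733 and chr17:28350699-28350724 with their flanks, which lie inside its limits and are not shown.

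The 250 bases upstream of *Cyr61*, a target whose transcript was among the most abundant in these cells, are given in full for context (chr3:145649986-145650235, minus strand, GRCm38.p6, TEAD word in capitals):
*Cyr61* upstream: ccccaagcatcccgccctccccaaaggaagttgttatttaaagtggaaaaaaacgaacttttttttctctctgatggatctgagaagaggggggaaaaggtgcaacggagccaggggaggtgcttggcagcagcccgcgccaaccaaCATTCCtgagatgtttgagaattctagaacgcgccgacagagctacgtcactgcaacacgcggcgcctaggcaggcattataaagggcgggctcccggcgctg

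Library totals ran from 54145701 to 94699657 counts. Mouse *Crx* checked the eutherian *CRX* labels, with 627, 995 and 313 counts in the eutherian *CRX* libraries, 0 in each control library, and 4, 0 and 0 in the metatherian *CRX* libraries, so that this gene does not check the metatherian *CRX* labels. Replicate 3 was the highest library of each condition on the first principal component of log2 depth-scaled counts (log2 CPM). This component held 56% of the variance. Eutherian *CRX* replicate 3 lay at 55.0 and metatherian *CRX* replicate 3 at 36.8, and the other 7 libraries lay between -32.3 and 12.7. Among these, control replicate 3 lay at 6.84, against -32.3 and -21.4 for control replicates 1 and 2. All 10 fibroblast markers tested (among them *Col1a1* and *Vim*) passed the filters, and their summed level was 9138 to 10520 FPKM in the control, 4451 to 8652 FPKM in the eutherian *CRX* and 4878 to 8762 FPKM in the metatherian *CRX* libraries. The markers did not move alike. For metatherian and eutherian *CRX* against control, the log2 fold change was -1.70 and -1.43 for *Col1a1*, -0.08 and -0.06 for *Vim*, and -1.99 and -0.24 for *Dcn*, with edgeR adjusted p-values of 0.141 to 0.965. Values above 0 were those of *Pdgfra*, with a log2 fold change of 0.58 (SE 0.13, edgeR adjusted p = 0.0988, no overlap), and *Fn1*, with 0.36 (SE 0.23, edgeR adjusted p = 0.433) for metatherian *CRX* against control. The 7 macrophage markers summed to 6.03 to 14.8 FPKM in the control, 2.61 to 7.93 FPKM in the eutherian *CRX* and 2.34 to 3.99 FPKM in the metatherian *CRX* libraries, with 2 of the 7 passing the filters. Of the 5 endothelial, 6 epithelial and 5 skeletal muscle markers 1 each passed, their sums stayed below 9 FPKM in every library, and the muscle determination gene *Myf5* was at 0 in all 9. The epithelial sum was 0.409 to 2.4 FPKM in the control, 0.211 to 8.90 FPKM in the eutherian *CRX* and 1.02 to 6.30 FPKM in the metatherian *CRX* libraries. Its 1 marker that passed was *Krt18*, which was highest in replicate 3 of each condition. With metatherian *CRX* it was above its same-numbered control in 3 of 3 pairs (log2 fold change 1.98, SE 0.75, edgeR adjusted p = 0.223). With eutherian *CRX* it was above in 1 of 3 pairs (log2 fold change 0.63, SE 0.78, edgeR adjusted p = 0.899). The mean of *Krt18* was over the 2 FPKM set by the filters with either *CRX* gene but not in the control. The filters thus favoured a higher level with *CRX* for this gene. The fibroblast sums of all *CRX* libraries were thus below all controls, as were the macrophage sums of the metatherian *CRX* libraries, and their part in the results below was not tested. In these bulk libraries, fewer cells of a type and less RNA per cell cannot be told apart.

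Levels are given as FPKM, counts per kilobase of exon scaled to library depth, a scale on which genes can be compared with each other. The targets were far above the factors. *Ctgf* averaged 448.3 FPKM and *Cyr61* 445.1 FPKM over the 9 libraries, ranks 63 and 64 of the 10100 genes, and neither of the pair was the higher in all libraries, since *Ctgf* was above *Cyr61* in 5 of 9. The coactivators followed, with *Yap1* at 58.5 FPKM and *Wwtr1* at 50.4 FPKM, *Yap1* being the higher in 8 of 9 libraries. *Vgll3* averaged 41.8 FPKM and *Tead1*, the most abundant TEAD gene, 38.5 FPKM, and their order changed between libraries, *Vgll3* being above *Tead1* in 5 of 9. *Tead2* at 25.4 FPKM was above *Tead3* at 15.3 FPKM in all 9 libraries. *Tead3* and *Vgll4*, at 13.4 FPKM, were close, *Tead3* being the higher in 5 of 9. *Tead4*, known for its role in the trophectoderm of the early embryo, was the lowest of the 10 in every library, with a mean of 3.29 FPKM. The remaining VGLL genes were all but absent, with 0 counts of *Vgll1* in every library and 0 to 6 counts of *Vgll2*.

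**Figure D1:**
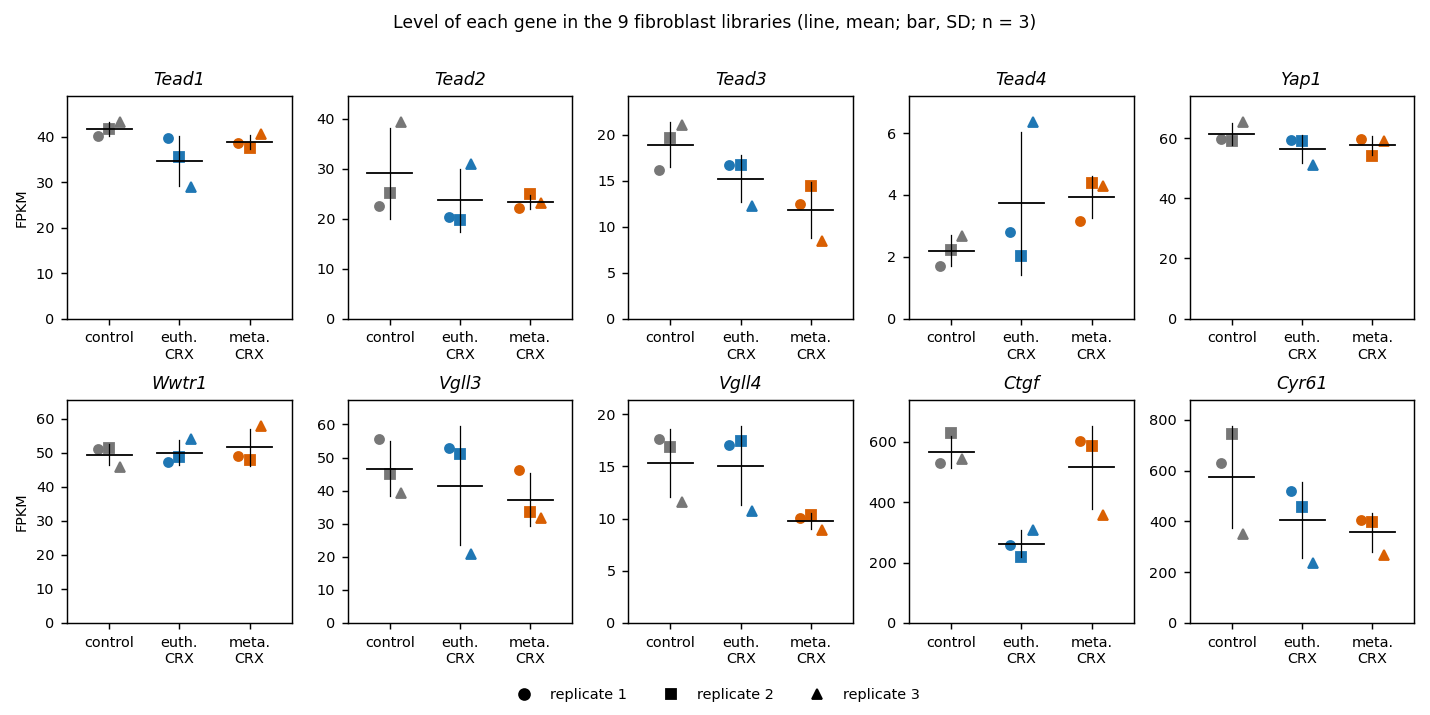
FPKM (y axes, linear and starting at 0) of the 10 genes in each library, by condition, with symbols for the replicate number, a line for the mean and a bar for the SD of the 3 libraries. The eutherian *CRX* points of *Ctgf* (219 to 309 FPKM) lie below all control points (531 to 628 FPKM), and the metatherian *CRX* points of *Vgll4* (8.86 to 10.4 FPKM) lie below all control points (11.6 to 17.6 FPKM).

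The spread of the genes over the libraries was unequal. *Wwtr1* and *Yap1* varied least, with a highest level 1.26-fold and 1.29-fold their lowest, and *Tead4* and *Cyr61* varied most, at 3.75-fold and 3.16-fold. Genes were tested with edgeR's quasi-likelihood test on the counts, with the replicate number entered as a blocking factor, and p-values were adjusted by Benjamini-Hochberg over all 10100 genes. Genes under 0.05 after adjustment count as called here. By that rule 0 of the 10 genes were called in each of the 3 comparisons, against a background of 0.0297% of all genes for metatherian *CRX* against control, 0.604% for eutherian *CRX* against control and 0% for metatherian against eutherian *CRX*. At an unadjusted p under 0.05, edgeR gave 4 of the 10 genes for metatherian *CRX* (all genes, 19.5%), 2 for eutherian *CRX* (8.56%) and 2 for the direct comparison (11.5%). DESeq2 with the same block called 3, 2 and 2 of them at an adjusted p under 0.05, against a background of 9.94%, 3.3% and 3.14% of all genes. Limma voom with quality weights, which gives discordant libraries less weight, called 5, 3 and 4, against a background of 46.2%, 16.8% and 48.3%. The per-library values of the genes behind these numbers follow by role.

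**Figure D2:**
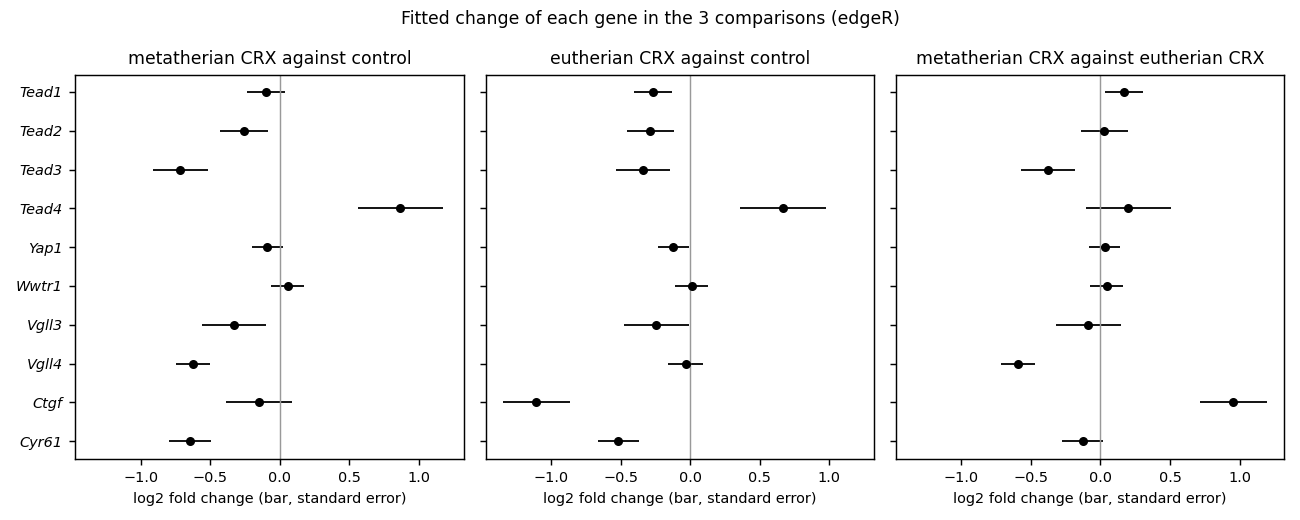
Fitted log2 fold change (x axes, with bars for 1 standard error) of each of the 10 genes in the 3 comparisons. *Ctgf* lies at -1.10 for eutherian *CRX* against control and at -0.15 for metatherian *CRX* against control, and *Vgll4* lies at -0.03 and -0.62 in the same comparisons.

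The target *Ctgf*, also named *Ccn2*, encodes connective tissue growth factor (chr10:24595442-24598683, plus strand, 5 exons in the deposited table). Its level was 531, 628 and 543 FPKM in the control libraries, 258, 219 and 309 FPKM in the eutherian *CRX* libraries, and 603, 587 and 357 FPKM in the metatherian *CRX* libraries. All 3 eutherian *CRX* libraries were below all control and all metatherian *CRX* libraries, and the metatherian *CRX* libraries overlapped the controls, with replicate 3 below them and the others within their range. Against control, *Ctgf* was 2.15-fold lower with eutherian *CRX* (log2 fold change -1.10, SE 0.24), lower in 3 of 3 same-numbered pairs, with an adjusted p = 0.159 from edgeR. With metatherian *CRX* the log2 fold change against control was -0.15 (SE 0.24, edgeR adjusted p = 0.762). In the direct comparison *Ctgf* was 1.94-fold higher with metatherian than with eutherian *CRX* (log2 fold change 0.96, SE 0.24), higher in 3 of 3 pairs, with an adjusted p = 0.281 from edgeR. DESeq2 and voom called both differences with all libraries (DESeq2 adjusted p = 0.000438 against control and 0.0073 in the direct comparison, voom adjusted p = 0.000186 and 3.95e-05). The number 3 libraries weighed on both values. Without metatherian *CRX* replicate 3, the edgeR adjusted p was 0.0446 for eutherian *CRX* against control and 0.0442 for the direct comparison, whose log2 fold change was then 1.24. Without eutherian *CRX* replicate 3, *Ctgf* was also called in the direct comparison (log2 fold change 1.22, edgeR adjusted p = 0.0309).

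*Cyr61*, also named *Ccn1*, encodes a matrix protein that binds integrins (chr3:145646971-145649985, minus strand, 5 exons). Its level was 629.9, 743 and 351 FPKM in the control, 520.1, 458 and 235 FPKM in the eutherian *CRX* and 405, 398 and 267 FPKM in the metatherian *CRX* libraries. Replicate 3 was the lowest library of each condition, and the low control replicate 3 made the control range overlap with both other groups. Within replicate numbers, the metatherian *CRX* library was below its control by 0.64, 0.90 and 0.40 on the log2 scale, and the eutherian *CRX* library by 0.28, 0.70 and 0.58. The fitted log2 fold change was -0.64 with metatherian *CRX* (SE 0.15, edgeR adjusted p = 0.108) and -0.52 with eutherian *CRX* (SE 0.15, edgeR adjusted p = 0.35). With all libraries DESeq2 called both (DESeq2 adjusted p = 0.00197 and 0.0408), as did voom (voom adjusted p = 0.000125 and 0.00935). Both comparisons share the control libraries. Between the 2 *CRX* genes the difference was -0.13 (SE 0.15, edgeR adjusted p = 0.79), and -0.35 with voom, which called it (voom adjusted p = 0.00326). DESeq2 did not call this difference. The metatherian value was called without eutherian *CRX* replicate 3 (edgeR adjusted p = 0.0386) and without metatherian *CRX* replicate 3 (edgeR adjusted p = 0.0404).

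The 2 targets, similar in mean level, were not in a fixed ratio. The log2 ratio of *Ctgf* to *Cyr61* FPKM, a quantity chosen after the values were seen and not tested, was -0.25, -0.24 and 0.63 in the control, -1.01, -1.06 and 0.39 in the eutherian *CRX* and 0.58, 0.56 and 0.42 in the metatherian *CRX* libraries. *Cyr61* was thus the more abundant in control and eutherian *CRX* replicates 1 and 2, and *Ctgf* in all metatherian *CRX* and all number 3 libraries. Over the 9 libraries the Pearson r of the log2 CPM of the targets was 0.28, a description over libraries that share conditions and replicate numbers.

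**Figure D3:**
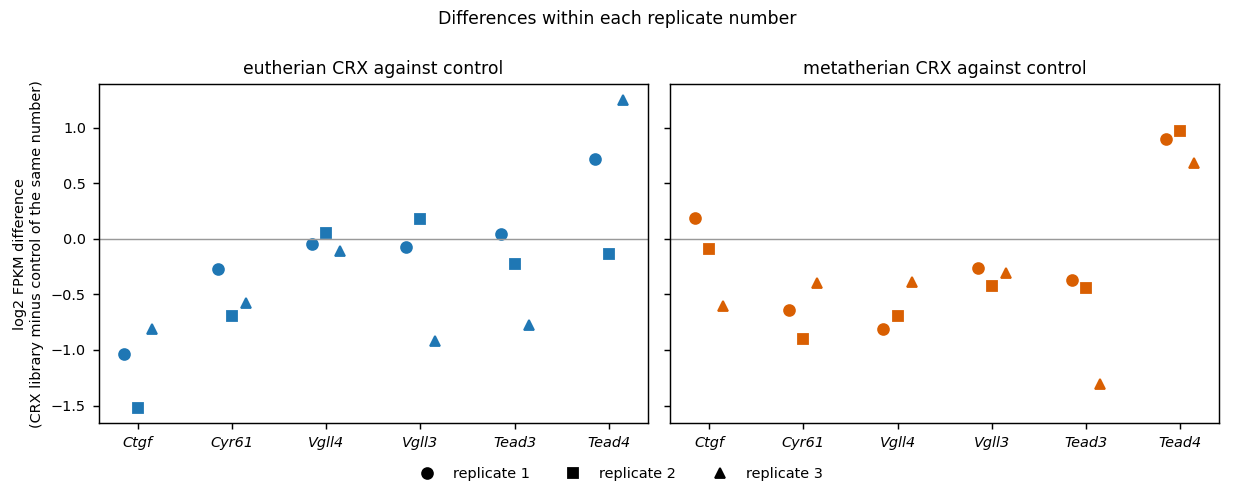
Log2 FPKM of each *CRX* library minus that of the control library of the same replicate number (y axis) for 6 genes, with a symbol for each replicate number. The eutherian *CRX* points of *Ctgf* lie at -1.04, -1.52 and -0.81, and the metatherian *CRX* points of *Vgll4* at -0.81, -0.70 and -0.39.

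*Vgll4* encodes the cofactor that competes with YAP for TEAD (chr6:114860621-114969989, minus strand, 12 exons). Its level was 17.6, 16.8 and 11.6 FPKM in the control, 17.1, 17.5 and 10.7 FPKM in the eutherian *CRX*, and 10.1, 10.4 and 8.86 FPKM in the metatherian *CRX* libraries. All metatherian *CRX* libraries were below all libraries of both other conditions, while control and eutherian *CRX* libraries took the same range, with replicate 3 the lowest of each. The metatherian *CRX* level of *Vgll4* was 1.54-fold below the control (log2 fold change -0.62, SE 0.12), with an edgeR adjusted p = 0.0873, rank 189 of the 10100 genes by p. It was 1.51-fold lower than with eutherian *CRX* (log2 fold change -0.59, SE 0.13, edgeR adjusted p = 0.275), and the eutherian value against control was -0.03 (SE 0.12, edgeR adjusted p = 0.975). DESeq2 and voom called both metatherian differences (DESeq2 adjusted p = 0.00151 and 0.00838, voom adjusted p = 3.53e-05 and 3.23e-05). The metatherian value against control was called without eutherian *CRX* replicate 3 (edgeR adjusted p = 0.0275) and without metatherian *CRX* replicate 3 (edgeR adjusted p = 0.0201). The direct difference was called only in the latter case among the fits without 1 library (edgeR adjusted p = 0.031).

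*Vgll3* encodes another TEAD cofactor (chr16:65815017-65866368, plus strand, 5 exons), and it was the VGLL gene with the highest level. It stood at 55.7, 45.1 and 39.2 FPKM in the control, 52.9, 51.0 and 20.7 FPKM in the eutherian *CRX* and 46.4, 33.5 and 31.7 FPKM in the metatherian *CRX* libraries. The groups overlapped, and eutherian *CRX* replicate 3 was the lowest of the 9. The log2 fold change was -0.33 (SE 0.23, edgeR adjusted p = 0.474) with metatherian and -0.24 (SE 0.23, edgeR adjusted p = 0.858) with eutherian *CRX*. Voom called the metatherian value (voom adjusted p = 0.012) and DESeq2 did not, and without eutherian *CRX* replicate 3 the eutherian value was 0.07. *Vgll3* was below its same-numbered control in 3 of 3 pairs with metatherian *CRX* and in 2 of 3 with eutherian *CRX*. Between the *CRX* genes its groups overlapped, and without replicate 3 of all conditions *Vgll3* was lower with metatherian *CRX* by that test (log2 fold change -0.40, edgeR adjusted p = 0.0454), a direction that turned in other fits with libraries left out (-0.40 to 0.20).

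Levels of both coactivator genes overlapped between all conditions. *Yap1* (chr9:7931999-8004596, minus strand, 9 exons) was at 59.7, 58.9 and 65.5 FPKM in the control, 59.3, 59 and 50.9 FPKM in the eutherian *CRX*, and 59.8, 54.0 and 59.1 FPKM in the metatherian *CRX* libraries. *Wwtr1* (chr3:57455644-57575910, minus strand, 7 exons) was at 51.1, 51.4 and 45.9 FPKM in the control, 47.1, 48.8 and 54.2 FPKM in the eutherian *CRX*, and 49.2, 47.8 and 57.9 FPKM in the metatherian *CRX* libraries. In replicate 3, *Yap1* was highest in the control and *Wwtr1* lowest there. The 6 log2 fold changes of the pair of genes lay between -0.12 and 0.06, with SEs of 0.11 to 0.12 and edgeR adjusted p-values from 0.686 to 0.993. *Wwtr1* made up 44.6% ± 2.95 (SD, n = 3) of the summed FPKM of both genes in control libraries, 47.0% ± 3.95 in eutherian and 47.2% ± 2.18 in metatherian *CRX* libraries. The differences were within the spread of the libraries, with exact two-sided permutation p-values of 0.4 to 1, where 3 against 3 cannot give less than 0.1. The permutation tests of shares and sums take the libraries as unpaired and leave out the replicate number that the main test uses as a block.

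Among the TEAD genes, *Tead3* had the lowest log2 fold change with metatherian *CRX*. *Tead3* (chr17:28331671-28350805, minus strand, 15 exons) was at 16.2, 19.6 and 21.0 FPKM in the control, 16.7, 16.7 and 12.2 FPKM in the eutherian *CRX* and 12.5, 14.5 and 8.49 FPKM in the metatherian *CRX* libraries. All 3 metatherian *CRX* libraries were below the controls, and replicate 3 was the highest control and the lowest library of both *CRX* conditions. The log2 fold change was -0.72 with metatherian *CRX* (SE 0.20, edgeR adjusted p = 0.134) and -0.34 with eutherian *CRX* (SE 0.20, edgeR adjusted p = 0.732). Leaving out 1 library moved the metatherian value between -0.89 and -0.44 and the eutherian one between -0.51 and -0.06, the smaller change in both cases without control replicate 3. DESeq2 called the metatherian value (DESeq2 adjusted p = 0.0179) and voom did too, at -0.44 (voom adjusted p = 0.00185), while the eutherian value was -0.06 with voom. The differences within replicate numbers were -0.37, -0.44 and -1.31 for metatherian *CRX*, so that replicate 3 held the largest. Without replicate 3 of all 3 conditions, the metatherian value was -0.41 (edgeR adjusted p = 0.0223). The deposited table lists the 15 exons of *Tead3* both on chromosome 17 and on an unplaced scaffold. If that scaffold was in the genome the reads were aligned to, *Tead3* reads could have had 2 equal places, and how such reads were counted is not given in the sources used here, so its level is uncertain.

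*Tead4* (chr6:128227143-128300813, minus strand, 12 exons) was the only TEAD gene with a positive log2 fold change against control. It was at 1.70, 2.23 and 2.68 FPKM in the control, 2.79, 2.03 and 6.37 FPKM in the eutherian *CRX* and 3.16, 4.38 and 4.29 FPKM in the metatherian *CRX* libraries. The counts behind these levels ran from 269 to 1463. All metatherian *CRX* libraries were above all controls, and eutherian *CRX* replicate 3 was the highest of the 9 while replicate 2 lay within the control range. The log2 fold change was 0.87 with metatherian *CRX* (SE 0.30, edgeR adjusted p = 0.197) and 0.67 with eutherian *CRX* (SE 0.31, edgeR adjusted p = 0.63). The eutherian value was 0.27 without eutherian *CRX* replicate 3 and 1.03 without eutherian *CRX* replicate 2. Neither was called by edgeR or DESeq2 with all libraries, while voom called both (voom adjusted p = 0.00138 and 0.0214). EdgeR called the metatherian value without replicate 3 of all conditions (edgeR adjusted p = 0.0306).

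*Tead1* and *Tead2* differed less. *Tead1* (chr7:112679320-112906805, plus strand, 14 exons) was at 40.1, 41.7 and 43.4 FPKM in the control, 39.8, 35.6 and 29.0 FPKM in the eutherian *CRX*, and 38.6, 37.6 and 40.6 FPKM in the metatherian *CRX* libraries. The 3 eutherian *CRX* libraries were below the controls, by a narrow margin in replicate 1, with a log2 fold change of -0.27 (SE 0.14, edgeR adjusted p = 0.686), which was -0.11 without eutherian *CRX* replicate 3. *Tead2* (chr7:45215753-45233636, plus strand, 12 exons) was at 22.5, 25.2 and 39.4 FPKM in the control, 20.4, 19.7 and 31.0 FPKM in the eutherian *CRX* and 22.1, 24.9 and 23.2 FPKM in the metatherian *CRX* libraries. Its groups overlapped, control replicate 3 was the highest library, and its log2 fold changes against control were -0.26 and -0.29 with metatherian and eutherian *CRX* (SE 0.17 each, edgeR adjusted p = 0.446 and 0.742). Leaving out 1 library moved them between -0.40 and -0.04, the latter without metatherian *CRX* replicate 3, and between -0.38 and -0.14, the latter without control replicate 3.

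Counted over the 10 genes, the groups did not overlap for 3 genes in metatherian *CRX* against control (*Tead3* and *Vgll4* lower, *Tead4* higher), 2 in eutherian *CRX* against control (*Tead1* and *Ctgf* lower) and 2 in the direct comparison (*Vgll4* lower, *Ctgf* higher with metatherian *CRX*). Over all genes the shares were 23.3%, 14% and 11.5%, so the counts of 3, 2 and 2 of 10 were not far from the background. The median log2 fold change of the 10 genes was -0.20 with metatherian and -0.26 with eutherian *CRX*, with 8 of 10 below 0 in each, beside medians of -0.01 and 0.00 over all genes and 51.2% and 49.7% of them below 0. Both sets of values rest on the same control libraries.

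Summed over the family, TEAD transcript was at 91.9 ± 13.3 FPKM (SD, n = 3) in the control, 77.4 ± 2.95 FPKM with eutherian *CRX* and 78.1 ± 2.79 FPKM with metatherian *CRX*. By library the sums were 80.5, 88.8 and 106.5 FPKM in the control, 79.6, 74.1 and 78.5 FPKM with eutherian and 76.3, 81.3 and 76.7 FPKM with metatherian *CRX*. The 3 eutherian *CRX* sums were below the 3 control sums, which gives the smallest p that 3 against 3 allows in an exact two-sided permutation test, p = 0.1, or 0.72 after Benjamini-Hochberg adjustment over the 9 sums and shares tested. For metatherian *CRX* the exact p was 0.2. These tests leave out the replicate number. By number, each sum of either *CRX* condition was below that of its control. The difference from control, -14.5 FPKM with eutherian and -13.8 FPKM with metatherian *CRX*, was -7.23 and -6.54 FPKM without control replicate 3 and -20.2 and -19.5 FPKM without control replicate 1. *Tead1* made up 45.9% ± 4.66 of the sum in the control, 45% ± 7.11 with eutherian and 49.9% ± 3.45 with metatherian *CRX* (SD, n = 3 each), with exact two-sided permutation p-values of 0.4 to 0.9. The share of *Tead4* was 2.11% to 2.51% in the control, 2.75% to 8.11% with eutherian and 4.14% to 5.60% with metatherian *CRX*, so that the control libraries were below all 6 *CRX* libraries. The share of *Tead3* was 19.7% to 22.1% in the control and 11.1% to 17.8% with metatherian *CRX*.

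**Figure D4:**
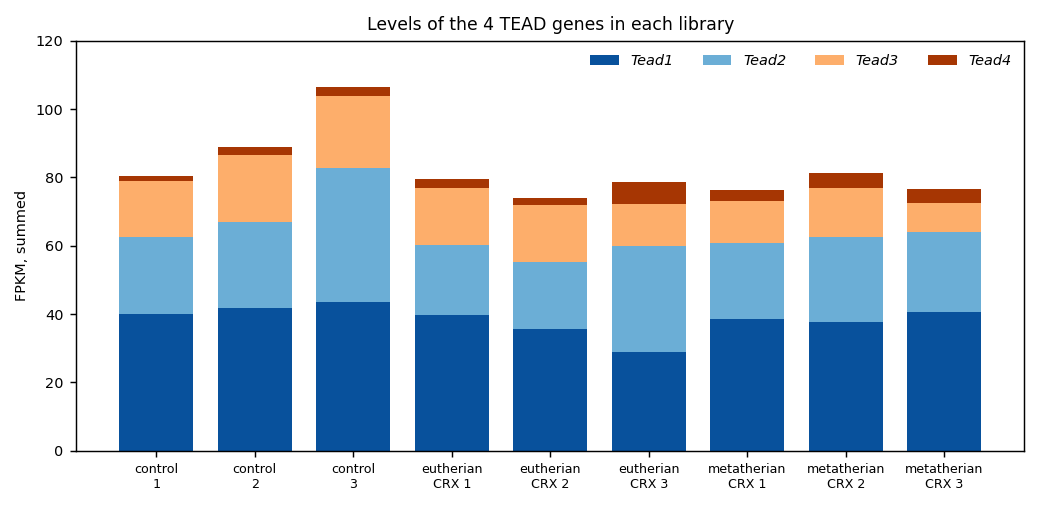
FPKM of the 4 TEAD genes stacked for each library (y axis, linear and starting at 0). *Tead1* is the largest segment in 8 of the 9 libraries, *Tead2* is the larger in eutherian *CRX* replicate 3 (39.4% against 36.9% of the sum), and control replicate 3 has the highest sum, 106.5 FPKM.

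Across the 9 libraries the members fell into pairs with like and unlike patterns, given here as descriptions over libraries that share conditions and replicate numbers. The highest Pearson r of log2 CPM among the 45 pairs of the 10 genes were 0.85 between *Tead1* and *Yap1*, 0.82 between *Vgll3* and *Cyr61* and 0.81 between *Vgll4* and *Cyr61*. The lowest were -0.91 between *Tead4* and *Vgll3* and -0.83 between *Tead4* and *Cyr61*. Of all 10100 genes, the one most like *Ctgf* was *Clip1* (r = 0.95), the one most like *Cyr61* was *Fst* (r = 0.98), the one most like *Vgll4* was *Smad1* (r = 0.98), and the one most like *Vgll3* was *Arf2* (r = 0.997). *Fst* encodes follistatin, an extracellular antagonist of activins, and *Smad1* encodes a transducer of bone morphogenetic protein signals.

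The rest of the pathway was read from lists of genes by role. The kinase module (11 genes, among them *Stk3*, *Stk4*, *Lats1* and *Lats2*) had 11 of 11 genes kept and 0 called by edgeR in any comparison. DESeq2 called 0 of 11 in each, and voom called 3 for metatherian *CRX* (all genes, 46.2%), 1 for eutherian *CRX* (16.8%) and 4 in the direct comparison (48.3%). At an unadjusted p under 0.05, edgeR gave 0 of 11 against control in either condition and 1 of 11, *Stk4*, in the direct comparison, beside 19.5%, 8.56% and 11.5% of all genes for metatherian, eutherian and direct comparisons. The median log2 fold change was -0.01 with metatherian and -0.11 with eutherian *CRX*. With metatherian *CRX* the highest value was 0.45 for *Mob1b*, a LATS coactivator (SE 0.19, edgeR adjusted p = 0.264), and the lowest -0.28 for *Taok2*, an upstream kinase (SE 0.15, edgeR adjusted p = 0.372). With 1 library left out *Mob1b* ran from 0.20, without control replicate 3, to 0.62, and *Taok2* from -0.44 to -0.11, the latter without metatherian *CRX* replicate 3.

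Upstream regulators and binders of YAP (17 genes, all kept) had 0 called by edgeR in each comparison, and 6, 1 and 4 at an unadjusted edgeR p under 0.05 for metatherian, eutherian and direct comparisons, beside 19.5%, 8.56% and 11.5% of all genes. DESeq2 called 6, 0 and 3 of the 17 (all genes, 9.94%, 3.3% and 3.14%), *Amotl2*, *Fat4* and *Tjp1* among the 6, and voom called 13, 2 and 12 (all genes, 46.2%, 16.8% and 48.3%). *Amotl2*, an angiomotin that retains YAP and is itself a YAP target, was at 111, 121 and 71.4 FPKM in the control, 102, 88.7 and 33.7 FPKM in the eutherian *CRX* and 58.8, 56.1 and 29.3 FPKM in the metatherian *CRX* libraries. The metatherian *CRX* libraries were all below the controls, and replicate 3 was the lowest of each condition. The log2 fold change was -1.11 with metatherian *CRX* (SE 0.18, edgeR adjusted p = 0.0722) and -0.55 with eutherian *CRX* (SE 0.18, edgeR adjusted p = 0.438), the latter ranging with 1 library left out from -0.71 to -0.33, without eutherian *CRX* replicate 3. *Amotl2* passed the adjusted threshold for metatherian *CRX* in a fit without eutherian *CRX* replicate 3 (edgeR adjusted p = 0.0064).

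The atypical cadherin gene *Fat4* had the lowest value of this list with metatherian *CRX*, -1.25 (SE 0.45, edgeR adjusted p = 0.202). Its libraries were at 74.4, 61.4 and 17.3 FPKM in the control, 69.3, 68.0 and 6.42 FPKM with eutherian and 24.0, 19.4 and 10.6 FPKM with metatherian *CRX*, so replicate 3 was the lowest of each condition. With 1 library left out the value of *Fat4* ran from -1.90, without metatherian *CRX* replicate 3, to -0.95, and it was called without eutherian *CRX* replicate 3 (edgeR adjusted p = 0.0198). *Tjp1*, which encodes a scaffold protein of tight junctions, had a value of 0.57 with metatherian *CRX* (SE 0.18, edgeR adjusted p = 0.166). It was at 19.9, 22.5 and 28.8 FPKM in the control and 37.7, 36.5 and 30.2 FPKM with metatherian *CRX*, with no overlap, and was called without metatherian *CRX* replicate 3 (edgeR adjusted p = 0.0278).

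Other genes known as YAP and TEAD targets (20 genes besides *Ctgf* and *Cyr61*, all kept, of which *Amotl2*, *Lats2* and *Ptpn14* also stand in a list above) had 0 called by edgeR in each comparison, and 4, 6 and 5 at an unadjusted edgeR p under 0.05, beside 19.5%, 8.56% and 11.5% of all genes. DESeq2 called 4, 2 and 3 of the 20 (all genes, 9.94%, 3.3% and 3.14%) and voom 16, 9 and 14 (all genes, 46.2%, 16.8% and 48.3%). With eutherian *CRX* 16 of 20 had a log2 fold change below 0 (all genes, 49.7%), with a median of -0.25, and with metatherian *CRX* 11 of 20 (all genes, 51.2%), with a median of -0.08. *F3*, which encodes tissue factor, was at 65.5, 79.3 and 70.7 FPKM in the control, 37.7, 38.4 and 27.9 FPKM with eutherian and 26.4, 24.6 and 47.3 FPKM with metatherian *CRX*. All 6 *CRX* libraries were below all 3 controls. Its log2 fold change with metatherian *CRX* was -1.16 (SE 0.27, edgeR adjusted p = 0.109), the lowest of the list there. *Nt5e*, which encodes the ectonucleotidase CD73, was the highest there, at 1.15 (SE 0.24, edgeR adjusted p = 0.0968), with 2.67, 2.62 and 3.08 FPKM in the control and 6.26, 6.23 and 5.80 FPKM with metatherian *CRX*. Both values were called without eutherian *CRX* replicate 3 (edgeR adjusted p = 0.0247 for *F3* and 0.00738 for *Nt5e*) and without metatherian *CRX* replicate 3 (edgeR adjusted p = 0.0141 and 0.0321).

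*Ankrd1*, a target widely used as a readout of YAP, had the lowest value of the list with eutherian *CRX*, -1.46 (SE 0.40, edgeR adjusted p = 0.316). It was at 2.97, 3.87 and 11.1 FPKM in the control, 0.607, 0.930 and 9.04 FPKM with eutherian, and 2.66, 3.13 and 12.1 FPKM with metatherian *CRX*. Replicate 3 was thus the highest of each condition by a wide margin, opposite to *Amotl2* and *Cyr61*. In the direct comparison the value of *Ankrd1* was 1.32 (SE 0.40, edgeR adjusted p = 0.321), the highest of the list. It ran from 0.97 to 2.00 with 1 library left out and was called without eutherian *CRX* replicate 3 (log2 fold change 2.00, edgeR adjusted p = 0.0165). Without that library the eutherian value against control was -2.10 (edgeR adjusted p = 0.0612).

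**Figure D5:**
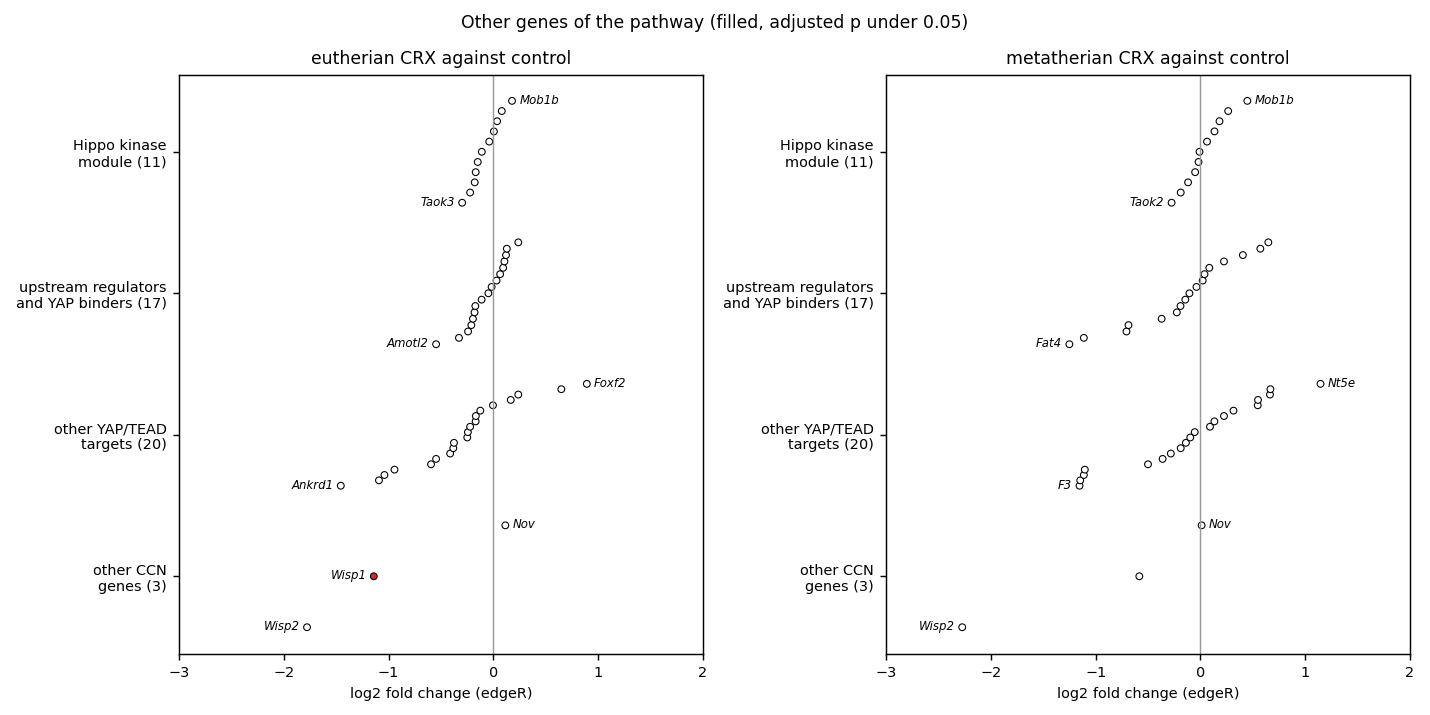
Fitted log2 fold change against control (x axes) of the other pathway genes, by list (y axes, with the number of genes), for eutherian *CRX* and metatherian *CRX*, with some of the genes at the ends of each list named and a filled point for a gene at an adjusted p under 0.05. The 1 filled point is *Wisp1* for eutherian *CRX*, at -1.14.

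With the main edgeR settings, 1 pathway gene outside the 10 was called, a relative of the targets. Of the other 3 CCN genes measured, *Wisp1* (*Ccn4*, a matrix protein gene first found downstream of WNT1) was at 38.3, 36.8 and 50.7 FPKM in the control, 19.2, 19.2 and 17.9 FPKM with eutherian and 27.7, 23.1 and 33.3 FPKM with metatherian *CRX*. The 3 groups did not overlap, with the control highest and eutherian *CRX* lowest. *Wisp1* fell by 1.14 on the log2 scale with eutherian *CRX* (SE 0.14, lower in 3 of 3 pairs, edgeR adjusted p = 0.0342). DESeq2 and voom also called it. The call was lost without the replicate block (edgeR adjusted p = 0.0745), from only the 6 libraries compared (edgeR adjusted p = 0.0797) and in 8 of the 9 fits without 1 library, where the adjusted p ran from 0.0335 to 0.274 and the log2 fold change from -1.27 to -0.97. With metatherian *CRX* the value was -0.58 (SE 0.14, edgeR adjusted p = 0.113, called at 0.0192 without eutherian *CRX* replicate 3), and between the *CRX* genes 0.56 (SE 0.14, edgeR adjusted p = 0.281). Of the 3 CCN genes DESeq2 called 1 in each comparison, *Wisp1*, and voom called 2, 2 and 1 for metatherian, eutherian and direct comparisons (all genes, 9.94%, 3.3% and 3.14% for DESeq2 and 46.2%, 16.8% and 48.3% for voom). *Wisp2* (*Ccn5*) had larger values with wider error, at -2.28 (SE 0.87, edgeR adjusted p = 0.225) with metatherian and -1.78 (SE 0.92, edgeR adjusted p = 0.69) with eutherian *CRX*, and its number 3 libraries were at 108, 2.72 and 13.5 FPKM in control, eutherian and metatherian *CRX*, the lowest of each condition. With 1 library left out the metatherian value of *Wisp2* ran from -2.75 to -1.04, the latter without control replicate 3, and it was called without eutherian *CRX* replicate 3 (log2 fold change -2.07, edgeR adjusted p = 0.0184). Its eutherian value ran from -2.70 to -0.80, the latter without eutherian *CRX* replicate 3, and was -0.99 without control replicate 3. *Nov* (*Ccn3*) was at 0.01 and 0.12.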

How the data were processed

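RNA-seq counts of 9 MEF libraries were analysed, 3 for each condition. For the deposited table, the authors mapped read pairs to mm10 (STAR v2.4.0) and counted them per gene with featureCounts v1.4.6, so its values are raw counts, neither normalized nor pooled. Which annotation release and strand option were used, and how multi-mapped reads were counted, is not given in the sources used here. Cufflinks FPKM of the authors was not taken. Counts of 54145701 to 94699657 per library limit counting error only.

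The 10 genes and all gene lists were chosen with earlier results of these data known. Genes were kept by filterByExpr (14599 of 22068) and by requiring a condition mean over 2 FPKM, which left 10100 genes. The main test was edgeR 4.0.16 (quasi-likelihood, TMM scaling, R 4.3.3) on all 9 libraries with replicate number as a block, as the study states that samples were prepared in pairs. The SE is the log2 fold change divided by the root of F. FPKM was computed from the TMM-scaled counts and the merged exon length that the table gives on assembled chromosomes. Same-condition libraries differed by 30.8 or more in chi-square per degree of freedom, so none was counted as a repeat of another.

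Genes were named by rule: all 10, any list gene called, and the 2 highest and 2 lowest log2 fold changes of each list and comparison. *Asap1* and the levels of *F3* with eutherian *CRX* are given in addition, chosen after their values were seen, and 1 list gene that the rule names is not reported here. Alternatives were no block, relative log expression and upper-quartile scaling, DESeq2 1.42.0, limma 3.58.1 (voom with quality weights), other filters, only the 6 libraries compared, and each library or replicate number left out. Scripts were tested on simulated data. Promoters are RefSeq sequences of GRCm38.p6.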

Additional observations from a re-analysis of the deposited data

Results flagged for a closer look

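Among the pathway genes, 3 were picked out because all 3 metatherian *CRX* libraries were above, and all 3 eutherian *CRX* libraries below, the control of the same number. The share of all genes that meets this description was not computed, so the 3 are not shown to exceed a background. They are *Tjp1*, *Asap1* and *Stk4*, and the direct comparison in edgeR, which called none of them, is given as a description, since the genes were picked on the same libraries. *Tjp1* was above its control by 0.92, 0.70 and 0.06 (log2 FPKM) with metatherian *CRX* and at -0.05, -0.39 and -0.28 with eutherian *CRX*, a direct log2 fold change of 0.81 (SE 0.18, edgeR adjusted p = 0.275). *Asap1*, which encodes an ARF GTPase-activating protein, was at 0.23, 0.12 and 0.06 with metatherian and -0.14, -0.48 and -0.13 with eutherian *CRX*, a direct log2 fold change of 0.38 (SE 0.12, edgeR adjusted p = 0.331). *Stk4*, which encodes the Hippo kinase MST1, was at 0.26, 0.13 and 0.16 with metatherian and -0.09, -0.26 and -0.09 with eutherian *CRX*, a direct log2 fold change of 0.33 (SE 0.09, edgeR adjusted p = 0.309). Both contrasts share the control libraries, and none of the 10 genes met this description.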

How the results depend on the processing

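Genes called for metatherian *CRX* against control, 3 with the main settings, numbered 0 without the replicate block, 1004 with DESeq2, 4665 with voom quality weights, 398 from only the 6 libraries compared, and 0 to 888 with 1 library left out. For eutherian *CRX* against control, 61 with the main settings, they numbered 0 without the replicate block, 333 with DESeq2, 1697 with voom, 109 with no filter, 0 from only 6 libraries, and 0 to 114 with 1 library left out. For the direct comparison, 0 with the main settings, they numbered 317 with DESeq2, 4883 with voom and 0 to 349 with 1 library left out. Leaving out a replicate number of all conditions gave 0 to 2252, 0 to 346 and 0 to 2280 genes, with the highest count always without number 3. Of the 10 genes, DESeq2 called 3, 2 and 2, voom 5, 3 and 4, the fits without 1 library 0 to 2, 0 to 1 and 0 to 2, and those without a number 0 to 4, 0 to 1 and 0 to 3. The causes were not tested. None of the 10 genes was called with the replicate block, so leaving it out could end no call among them, and it ended that of *Wisp1*. Without the block, 2 of the 10 genes had an unadjusted edgeR p under 0.05 for metatherian *CRX* (all genes, 1317 of 10100). For eutherian *CRX* 1 of the 10 did (all genes, 615). With the block these were 4 (all genes, 1969) and 2 (all genes, 865). Of same-numbered libraries of different conditions, 8 of 9 pairs had deviations from the group means correlated above 0.1 (0.0034 to 0.75). Those with a control library were at 0.274 to 0.698. Of pairs with different numbers 5 of 18 were above 0.1, the highest at 0.722. The labels do not say which libraries were prepared together, and whether their numbers mark those pairs was not tested. *Vgll1* and *Vgll2*, at 0 to 6 counts, did not pass the filters.

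No value that turned direction passed the threshold, while the -0.40 of *Vgll3* below, without number 3, kept its direction and was called (edgeR adjusted p = 0.0454). With voom, *Wwtr1* was at -0.061 and -0.10 (metatherian and eutherian *CRX* against control), *Ctgf* at 0.035 for metatherian *CRX* against control, and *Tead1* and *Yap1* at -0.018 and -0.0054 in the direct comparison. There *Tead2* was at -0.015 without the replicate block and at -0.0062 with upper-quartile scaling, which also gave *Yap1* -0.0031 and a TEAD sum of -1.12 FPKM. With libraries left out, log2 fold changes of metatherian *CRX* against control ran from -0.081 to 0.14 for *Wwtr1* and -0.32 to 0.11 for *Ctgf*. Those of eutherian *CRX* against control ran from -0.11 to 0.077 for *Wwtr1*, -0.50 to 0.066 for *Vgll3* and -0.094 to 0.070 for *Vgll4*. Those of the direct comparison ran from -0.13 to 0.25 for *Tead2*, -0.20 to 0.62 for *Tead4*, -0.068 to 0.12 for *Yap1*, -0.040 to 0.11 for *Wwtr1* and -0.40 to 0.20 for *Vgll3*. The TEAD sum (direct comparison) ran from -0.98 to 1.80 FPKM, the *Tead1* share (eutherian *CRX* against control) from -3.43 to 3.20 percentage points and the *Wwtr1* share (direct comparison) from -1.22 to 2.42.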
